A study of Mus musculus with 16 samples.

Results

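Signature-positive T cells of the liver-draining lymph node (LN) were described here, a set of 1378 cells among 5972 T cells and 19543 cells in 3 CITE-seq libraries, out of 53595 cells in the 8 sequenced units of the series. Cells were barcodes with at least 1000 RNA UMIs (unique molecular identifiers, each standing for 1 captured molecule) and at least 500 genes, of whose UMIs no more than 10% were mitochondrial. It was called a T cell at 2 or more UMIs summed over Cd3d, Cd3e and Cd3g with no UMI of Ncr1, Cd79a, Fscn1, Siglech or Foxp3, which mark NK cells, B cells, mature dendritic cells, plasmacytoid dendritic cells and regulatory T cells. A T cell was signature-positive when at least 3 of the 8 genes Nkg7, Cxcr3, Il2rb, Eomes, Gzmm, Ctla2a, Hopx and Ly6c2 had a UMI. These RNA counts chose the cells, so their own levels are a description; the surface tags, the coreceptors, the receptor genes and all other transcripts were not used by the choice.

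The libraries came from C57BL/6J mice fed chow with 0.1% DDC, a diet that causes cholestasis by injuring bile ducts. D0 was the control without the diet and D19 marked 19 days of it. The label STOP, carried by a sorted γδ T cell pool used as a reference, stands in the study for recovery after the diet. The middle library carried the name D5 in the title but D6 in the description field, and is called D5 here. CITE-seq reads the transcriptome and antibody-bound surface proteins of the same cell, here with 11 tags. Hepatoduodenal and celiac nodes had been pooled, and sorted live singlets, CD45+ cells with and without Itgax, Pdpn+ cells and cells without CD45 and Pdpn had been mixed in equal parts, so the share of T cells among all cells was set in part by the sort. Each time point was 1 library, and the number of mice behind it was not given in the sources used here. Time point and library therefore cannot be told apart, no test was possible, and every interval given is an exact 95% interval (Clopper-Pearson for shares, Poisson for counts), and for a difference of shares the Clopper-Pearson bounds of both shares combined by Newcombe's method, that covers counting error only.

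T cells in the resting lymph node are mostly naive cells that recirculate through the blood. A memory-like fraction, largely CD8 T cells, carries the interleukin-2 and interleukin-15 receptor chain CD122 (Il2rb), the chemokine receptor CXCR3, the T-box factor Eomes and the surface protein Ly6C (Ly6c2), and is known to respond to cytokines as well as to antigen. Nkg7 is a protein of cytotoxic granules, Gzmm a granzyme shared by NK and T cells, Hopx a homeodomain protein of effector and memory lymphocytes and Ctla2a a cathepsin inhibitor. Memory-like CD8 T cells that arise without antigen are known for a low level of the integrin CD49d (Itga4), and antigen-experienced cells for a high level. γδ T cells and NKT cells can express the same signature, which is why receptor genes and proteins were examined beside it.

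The protein data rest on antibodies that each carry an oligonucleotide, and the tags for CD3, CD8a and CD4 were identical in all 3 libraries. They are shown because the CD3, CD8a and CD4 results come from counting them.
CD3: GTATGTCCGCTCGAT
CD8a: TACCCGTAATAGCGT
CD4: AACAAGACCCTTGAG

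Promoter sequences of the signature genes are shown for the motifs of the factor families that the signature itself contains or pairs with, the T-box family (Eomes, Tbx21) and RUNX. The letters GTGTGA (T-box core) and TGTGGT (RUNX core) were searched on both strands in the 250 bases before each start site in the RefSeq table of build GRCm38.p6, which corresponds to the mm10 build of the files. Of 32851 such windows, 12.3% held the T-box core, 14.0% the RUNX core and 2.05% both. Of the 8 signature genes 7 were matched in the table, 3 of them held a T-box core and 4 a RUNX core in at least 1 window. Nkg7 and Cxcr3 held both cores in the same window. Gzmm, Ctla2a, Hopx and Ly6c2 had 2 windows each, and those of Ly6c2 shared the same RUNX site. These counts are of genes and the background is of windows, so no enrichment is read from them. The motif letters are in capitals, read 5′ to 3′ on the gene's strand, and an opposite-strand match appears as its reverse complement.
Nkg7, T-box core, chr7:43437108-43437137, + strand: agggagggggtagggaagGTGTGAgaagaa
Nkg7, RUNX core on the opposite strand, chr7:43437043-43437072, + strand: gggcccacccctACCACAtaggaggagagg
Cxcr3, T-box core on the opposite strand, chrX:101734364-101734393, - strand: actgccatcagaTCACACttcctgcctgct
Cxcr3, RUNX core on the opposite strand, chrX:101734240-101734269, - strand: tgtattcacctgACCACAggcgtggcagaa
Ly6c2, RUNX core on the opposite strand, chr15:75112133-75112162, - strand: ggtcccttcccaACCACAgagtcctccctc
Xcl1, T-box core, chr1:164935692-164935721, - strand: ggtctcatgttgGTGTGAacaaggcaaagg
The last is the promoter of Xcl1, the lymphotactin gene, which was not part of the signature and whose level is given among the chemokines. Xcl1 also held a RUNX core. Of the other genes searched outside the signature, Klrk1 and S100a6 held a match, Itgb1, Ifng and Ccl4 held none, and Ccl5 was not matched in the table. A match shows only that the letters are present in the window.

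The 3 libraries held 45317389, 47653941 and 32013882 RNA UMIs at D0, D5 and D19, with 6542, 6248 and 6753 cells and a median of 4945.5, 4931.5 and 3333 UMIs per cell. D19 was thus the shallowest library. Of the cell barcodes, 12 were shared by D0 and D5, 12 by D0 and D19 and 9 by D5 and D19. The signature-positive T cells held more UMIs per cell than T cells as a whole, with medians of 7374, 8269 and 5365 against 5403.5, 6299 and 3634. From the immunoglobulin UMIs in them, free RNA was estimated to make up 3.12%, 5.99% and 2.74% of their UMIs.

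Signature-positive cells made up 647 of 2314 T cells at D0, or 28.0% (interval 26.1 to 29.8). At D5 they were 358 of 1355, or 26.4% (24.1 to 28.9), and at D19 373 of 2303, or 16.2% (14.7 to 17.8). With all UMIs the D0 and D5 intervals overlapped and D19 lay below both, with a difference of -11.8 percentage points (interval -14.2 to -9.36) against D0. A cell with fewer UMIs has fewer chances to show 3 genes, so the rule was reapplied after each cell was thinned to 3000 UMIs. This left out 135, 42 and 659 shallower T cells, and cells that lost their UMIs of an excluding gene could enter. The shares were then 21.6%, 17.6% and 16.0% (21.4%, 17.8% and 15.8% with T cells kept as called from all UMIs). The D19 minus D0 difference was -5.60 points (interval -8.08 to -3.08). D5 then lay below D0 beyond counting error, at -3.97 points (-6.63 to -1.26), and D19 minus D5 was within it, at -1.63 points (-4.35 to 1.07). At 1000 UMIs per cell the shares were 8.82%, 5.41% and 3.13%, with D5 minus D0 at -3.41 points (-5.43 to -1.29). D0 was the highest library at each of these depths. Cells grouped by their own depth gave another order. Among T cells with 3000 to 6000 UMIs (1283, 539 and 1400 cells) the shares were 13.8%, 11.3% and 15.2%, with D19 minus D0 at 1.42 points (-1.31 to 4.13) and D19 minus D5 at 3.90 points (0.392 to 7.13). With 6000 to 9000 UMIs (655, 572 and 183 cells) they were 45.0%, 25.9% and 60.1%, and with 9000 or more (241, 202 and 61 cells) 69.7%, 72.3% and 52.5%. A fixed depth range takes unlike slices of the libraries, for 6000 to 9000 UMIs 655 of 2314 T cells at D0 and 183 of 2303 at D19. What this did to the shares by own depth was not tested. All UMIs and thinning put D19 below D0, at 1000 UMIs by -5.69 points (-7.42 to -3.98). The direction of the D19 difference thus depended on how depth was handled, and no single direction can be given for it.

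Within the CD8 T cells (1 or more UMIs of Cd8a or Cd8b1, none of Cd4 or Trdc) the signature was carried by 500 of 1062 cells at D0, 269 of 653 at D5 and 312 of 1154 at D19, which was 47.1%, 41.2% and 27.0%. D5 minus D0 was -5.89 points (-10.8 to -0.956). At 3000 UMIs per cell the shares of CD8 T cells were 33.5%, 25.8% and 22.3%. There D5 minus D0 was -7.68 points (-12.1 to -3.17) and D19 minus D0 -11.1 points (-15.1 to -7.14). D19 minus D5 was within counting error at -3.44 points (-7.79 to 0.844). By the cells' own depth they were 22.4%, 12.2% and 22.5% with 3000 to 6000 UMIs and 60.4%, 35.0% and 68.2% with 6000 to 9000, where D19 was not below D0, and 84.8%, 83.6% and 68.4% with 9000 or more. Cells with only Cd4 carried it in 4.99%, 5.05% and 2.95%, and T cells with a Trdc UMI in 50.5%, 53.2% and 28.8%. The signature was therefore common among CD8 and Trdc-bearing T cells and rare among CD4 T cells in each library.

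**Figure D1:**
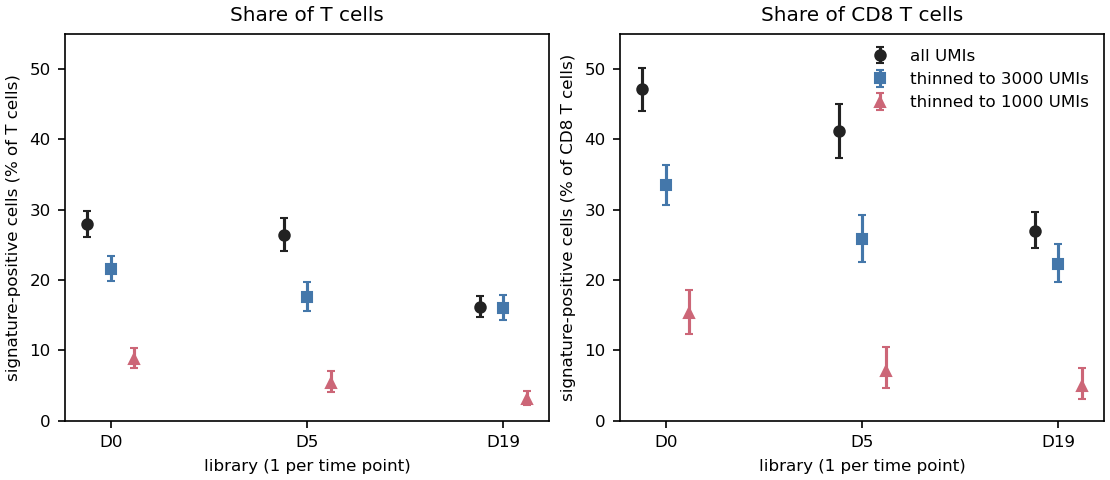
Signature-positive cells as a percentage of T cells (left) and of CD8 T cells (right) in the D0, D5 and D19 libraries, with exact 95% intervals as bars. Black circles use all UMIs, blue squares cells thinned to 3000 UMIs and red triangles cells thinned to 1000 UMIs; the D19 share of T cells is 16.2% with all UMIs and 16.0% at 3000 UMIs, while the D0 share moves from 28.0% to 21.6%.

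Among the signature genes, Nkg7 was the most often detected, in 96.4%, 96.9% and 92.5% of signature-positive cells at D0, D5 and D19. Ly6c2 followed at 81.6%, 80.4% and 90.6%. Hopx was detected in 74.3%, 66.5% and 70.8% and Il2rb in 64.6%, 72.3% and 58.2%. Cxcr3 was detected in 45.9%, 47.2% and 23.6%, Eomes in 35.5%, 34.9% and 15.6% and Gzmm in 26.4%, 14.5% and 9.12%. On the CPM scale, the usual library-scaled count (here a gene's UMIs summed over the cells and divided by all UMIs of those cells), Gzmm was 89.8, 39.2 and 20.6, Eomes 82.7, 77.4 and 37.1, and Ly6c2 798.3, 880.5 and 1015. These genes chose the cells, and the choice depends on depth, so these levels are a description with no reading across time.

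The number of CD8 T cells at each count of signature genes was compared above 4. At D0, 83, 85 and 74 CD8 T cells held 5, 6 and 7 genes, and at D5 50, 54 and 37. At D19, 63, 37 and 7 did. Cells with 5 to 8 genes were 53.6%, 53.1% and 34.6% of the signature-positive cells. This count depends on depth: cells with 5 to 8 genes were 347 of 2314, 190 of 1355 and 129 of 2303 T cells with all UMIs and 7.74%, 4.53% and 2.16% of T cells at 3000 UMIs, where D5 minus D0 was -3.21 points (-4.79 to -1.57) and D19 minus D5 -2.37 points (-3.76 to -1.06).

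**Figure D2:**
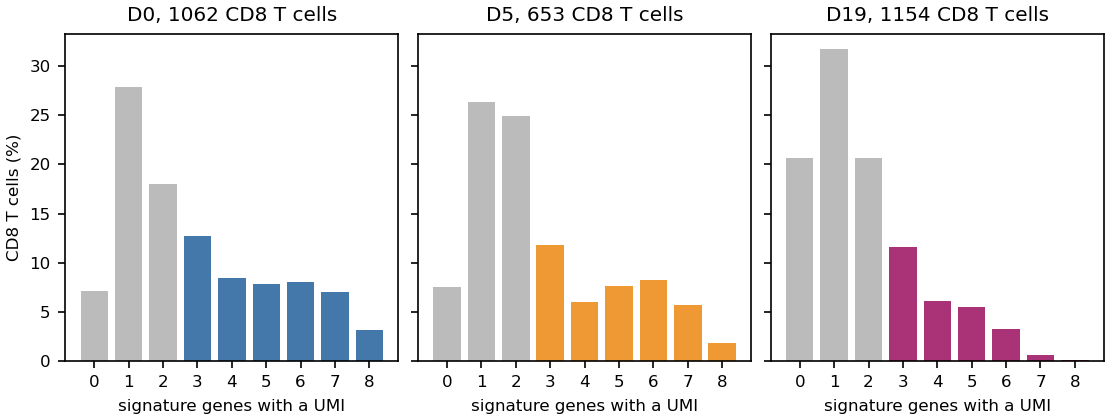
Percentage of CD8 T cells of each library by the number of signature genes with a UMI. Grey bars are cells below the rule of 3 genes and coloured bars the signature-positive cells; D0 holds 83, 85 and 74 cells with 5, 6 and 7 genes, D5 50, 54 and 37, and D19, the shallowest library, 63, 37 and 7.

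The cells just inside and just outside the rule were set side by side. In CD8 T cells with exactly 2 signature genes, Lef1, a factor of naive T cells, was at 468.9, 459.1 and 377.0 CPM at D0, D5 and D19, and with exactly 3 at 397.3, 433.6 and 279.9 CPM. Cd44, an adhesion receptor of activated and memory T cells, was at 4.81, 13.0 and 8.12 CPM with 2 genes and 11.7, 6.65 and 12.7 CPM with 3. Ccl5, a chemokine stored by memory CD8 T cells, differed more, at 55.3, 63.2 and 166.9 CPM with 2 genes and 276.9, 124.6 and 1027 CPM with 3.

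Surface protein was read as positive above the 99th percentile of the B cells of the same library. CD8a was positive on 489 of 647 signature-positive cells at D0 (75.6%, interval 72.1 to 78.8), 278 of 358 at D5 (77.7%, 73.0 to 81.9) and 325 of 373 at D19 (87.1%, 83.3 to 90.4). Of the NK cells (Ncr1 present, no CD3 transcript), 0 of 333, 0 of 95 and 1 of 121 were positive. CD4 was positive on 5.41%, 14.2% and 9.12%, a share that moved with the threshold. At D0 the CD4 threshold was 686.64 counts, above the median of 650 in other T cells, and 43.6% of those passed it, against 93.9% at D5 and 79.0% at D19, where the thresholds were 300.56 and 162.98. At the 95th percentile of B cells CD4 was positive on 12.4%, 17.3% and 11.3% of signature-positive cells, and at the 99th of NK cells on 7.73%, 3.07% and 9.12%, so no order of the libraries is read from it. The CD8a threshold was also highest at D0, at 733.18 counts against 347.16 and 165.88. At the 95th percentile of B cells CD8a was positive on 84.1%, 80.4% and 90.6%, so no order of D0 and D5 is read from it either. Most signature-positive cells thus carried CD8a protein, a measure that the rule did not use.

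CD3 protein was compared between cells that the choice already separates, since signature-positive cells had to hold CD3 transcripts and NK cells to lack them. Their median CD3 tag count was 64 at D0, 74.5 at D5 and 31 at D19, against 2, 2 and 1 in NK cells. It was lower than in other T cells (those with none of the signature genes), whose medians were 176.5, 195 and 60. CD8 T cells without a signature gene had medians of 141, 133 and 46, and signature-positive cells with 5 to 8 genes 51, 62 and 26. The CD4 part had CD3 medians of 180.5, 90.5 and 93 in its 24, 16 and 9 cells. By the B cell threshold CD3 was positive on 59.2%, 83.2% and 72.7%, and by the 99th percentile of NK cells, an alternative added after seeing the data, on 90.7%, 93.6% and 81.5%. The other 8 tags (F4/80, CD80, CD197, CD115, CD11b, CX3CR1, CD301b and XCR1) were positive on 0% to 1.12% of signature-positive cells by the B cell threshold. Their medians in these cells were 0 to 11 counts. B cells were not shown to lack these proteins, and some thresholds were high, for CD11b 684.43, 1253.4 and 525.84 counts at D0, D5 and D19. Absence of these proteins is therefore not read from the shares.

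**Figure D3:**
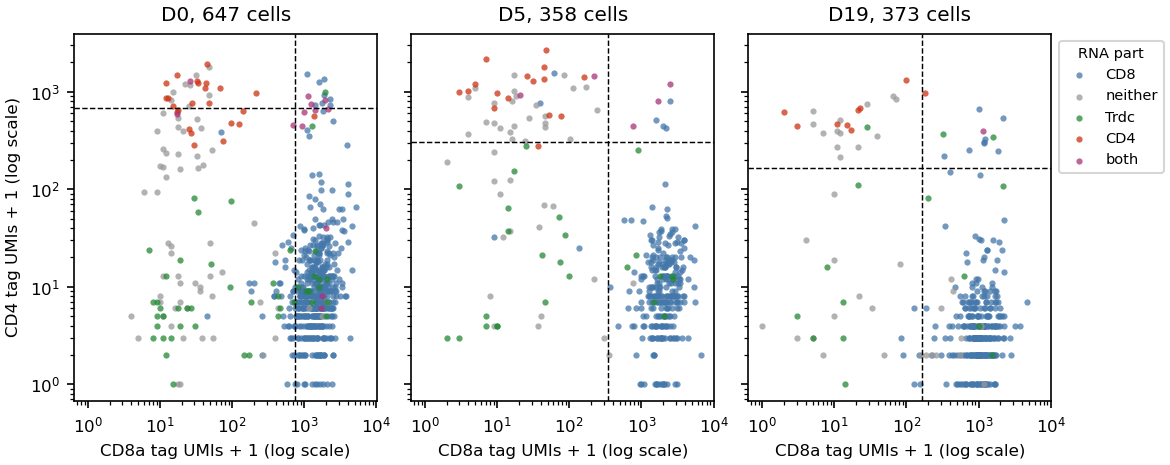
CD8a tag UMIs (x axis) and CD4 tag UMIs (y axis), each plus 1 on a log scale, for every signature-positive cell of D0 (647 cells), D5 (358) and D19 (373). Colours give the part by RNA, dashed lines the 99th percentile of B cells; the CD8 part lies to the right at low CD4, and the cells with neither coreceptor transcript spread over the CD4-high and the double-low areas and, for 10 of 36 at D19, the CD8a-high area.

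By RNA the signature-positive cells fell into 5 exclusive parts. The CD8 part held 500 cells at D0 (77.3%, interval 73.9 to 80.5), 269 at D5 (75.1%, 70.3 to 79.5) and 312 at D19 (83.6%, 79.5 to 87.3). The Trdc part (1 or more UMIs of Trdc, the δ chain constant gene) held 46, 25 and 15 cells, or 7.11%, 6.98% and 4.02%, with overlapping intervals of 5.25 to 9.37, 4.57 to 10.1 and 2.27 to 6.55. The CD4 part held 24, 16 and 9 cells, cells with both coreceptors numbered 13, 5 and 1, and cells with neither 64, 43 and 36.

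In the CD8 part the protein followed the RNA. CD8a protein was positive on 92.4%, 98.5% and 98.1% of these cells and CD4 protein on 1.60%, 2.23% and 2.56%. By the 95th percentile of B cells CD8a was positive on 99.6%, 98.9% and 100% of them. Cd8b1, the β chain of the CD8 heterodimer, was detected in 97.6%, 98.1% and 97.1%, and Trac, the α chain constant gene of the αβ receptor, in 96.4%, 96.7% and 86.9%. In B cells, which lack both, Cd8b1 had a UMI in 2.29%, 2.33% and 1.11% and Trac in 2.19%, 2.59% and 1.16%, at median depths of 3367, 3882 and 2106 UMIs against 7704, 8946 and 5551.5 in the CD8 part. The γ chain constant genes Tcrg-C1, Tcrg-C2 and Tcrg-C4 had a UMI in 1.80%, 3.72% and 0.641% of the CD8 part. The part was chosen for a Cd8a or Cd8b1 UMI and no Trdc, so Cd8b1 largely restates the choice. No tag for an αβ or γδ receptor was among the 11 tags, so the receptor was read from RNA alone.

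The Trdc part was mixed. Trdc stood at 869.7, 864.3 and 358.9 CPM in it, and a UMI of it was found in 0.398%, 0.131% and 0% of B cells. Any γ chain constant gene was detected in 29 of 46 cells at D0, 17 of 25 at D5 and 7 of 15 at D19. Trac was detected in 24, 16 and 7 of them, and CD8a protein was positive on 13, 8 and 7. Over the 3 libraries, 26 cells held 1 or 2 Trdc UMIs, of which 21 had Cd8b1, 23 had Trac, 6 had a γ chain gene and 18 were CD8a positive. The 60 cells with 3 or more Trdc UMIs had Cd8b1 in 11, Trac in 24 and a γ chain gene in 47, and 10 were CD8a positive. The cells with few Trdc UMIs thus had the receptor and coreceptor pattern of CD8 T cells more often than those with more, a split chosen after seeing the data.

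Sorted γδ T cells of the same organ gave a reference for the Trdc part. In the LN pool of D0 and D5, 5799 of 10684 T cells met the same rule (54.3%, interval 53.3 to 55.2), and in the LN pool labelled D19 and STOP 423 of 835 (50.7%, 47.2 to 54.1). The latter pool mixed cells of the diet and of recovery from it, and was used whole. Of the cells that met the rule in the 2 pools 98.5% and 95.5% had a Trdc UMI. A γ chain constant gene was detected in 87.0% and 84.9% of them and Trac in 27.5% and 20.8%. Sorted γδ T cells met the rule about as often as Trdc-bearing T cells of the D0 and D5 CITE-seq libraries (50.5% and 53.2%). They met it more often than those of D19 (28.8%, from 52 cells). The 2 kinds of library differed in sort and depth, and the difference was not tested.

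The CD8 and Trdc parts were compared for single genes. Klrc1, the inhibitory NK receptor NKG2A, was at 134.3, 83.6 and 54.6 CPM in the Trdc part and 36.4, 21.1 and 19.5 CPM in the CD8 part. Itga4 (CD49d) was at 61.0, 317.8 and 234.1 CPM in the Trdc part against 65.3, 108.4 and 82.8 CPM in the CD8 part, so the parts stood apart at D5 and D19 and not at D0. Ccl5 was at 5932, 4260 and 3503 CPM in the Trdc part and 3337, 1860 and 2562 CPM in the CD8 part. The D5 and D19 values of the Trdc part rest on 25 and 15 cells. Over all genes tested, 0.616%, 5.06% and 9.88% were lower by 2-fold or more in the CD8 part at D0, D5 and D19. Higher by as much were 1.23%, 2.85% and 5.03%. The gap in Itga4 is thus not read as particular to that gene.

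Cells with neither coreceptor transcript were higher in Ikzf2 and Klrb1c than the CD8 part. Ikzf2, the transcription factor Helios, was at 274.7, 228.7 and 218.6 CPM in them against 24.9, 47.5 and 15.3 CPM in the CD8 part. Klrb1c (NK1.1), which marks NK and NKT cells, was at 117.7, 182.2 and 75.1 CPM against 3.92, 6.89 and 9.50 CPM. Zbtb16, the PLZF factor of innate-like T cells, had 11, 13 and 0 UMIs in the cells with neither at the 3 time points, and 0, 1 and 2 in the CD8 part. Il4 had 12, 16 and 3 UMIs against 0, 2 and 0. Of the α chain segments used by invariant T cells, Trav11 had 1 UMI at D0 and 1 at D5 in the cells with neither, Trav1 had 1 UMI at D19 in the CD4 part, and Trav11d had none in any signature-positive cell. CD4 protein was positive on 12.5%, 58.1% and 36.1% of the cells with neither transcript, and CD8a protein on 4.69%, 4.65% and 27.8%. The CD4 threshold of D0 is the high one, which only 58.3% of the CD4 part passed there against 93.8% at D5 and all 9 cells at D19, so the low D0 share is not read as a difference between libraries. The cells with neither transcript are given no cell type name.

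Signature-positive cells were next set against CD8 T cells with none of the signature genes (77, 50 and 243 cells at D0, D5 and D19, a few with a Trdc UMI) within each library. CD8a protein was positive on 54.5%, 58.0% and 81.1% of these reference cells and CD4 protein on 22.1%, 44.0% and 18.1%, so a part of them were not CD8 T cells by protein. A gene was counted as higher or lower when log2(CPM + 10) differed by 1 or more and it had at least 50 UMIs over both groups, which a gene can reach through the larger group alone. The background of genes higher was 3.60% of those tested at D0, 4.54% at D5 and 1.60% at D19, and of genes lower 0.538%, 0.742% and 0.277%. In all 3 libraries 34 genes were higher and 6 lower, of 4453 with enough UMIs in each. A constant of 10 CPM was added before the logarithm, so differences of low genes are understated.

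Ccl5 led the list. It was at 3514 CPM in signature-positive cells at D0 (interval 3464 to 3564), 2036 at D5 and 2769 at D19, against 27.1 (13.0 to 49.9), 21.6 and 293.9 in the reference cells, with log2 differences of 6.57, 6.02 and 3.19. S100a6, a calcium-binding protein of motile cells, was at 279.7, 244.9 and 301.8 CPM against 38.0, 10.8 and 42.8. Itgb1, the β1 integrin chain that pairs with CD49d, was at 121.7, 180.3 and 122.0 CPM against 5.43, 28.8 and 23.1. Klrk1, the activating receptor NKG2D, was at 111.6, 76.5 and 42.9 CPM against 5.43, 0 and 3.47. The membrane-binding protein Anxa2, the cytoskeletal protein Ahnak, the cathepsin inhibitor Ctla2b, the replication factor Pclaf, Ms4a4c and Xcl1 completed the 10 largest differences. Genes were ranked by the smallest of their within-library differences, so a gene reversed in any library could not enter the list.

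The genes lower in signature-positive cells included Ccr9, the gut and thymus homing receptor, at 30.6, 36.1 and 27.7 CPM against 78.7, 133.2 and 104.1. Ifngr2, a chain of the interferon-γ receptor, was at 14.9, 16.5 and 10.3 CPM against 73.3, 57.6 and 44.0. Rgcc was at 91.7, 84.8 and 79.6 CPM against 236.1, 241.2 and 268.5. Ramp1, a receptor-modifying protein, and Trat1, a T cell receptor adaptor, were also lower by 2-fold in each library. S1pr1, the receptor for exit from the node, was at 196.8, 204.5 and 244.5 CPM against 436.9, 359.9 and 414.3, which passed the 2-fold limit at D0.

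Of memory genes, Cd44 was higher and Itga4 was not. Cd44 was at 47.9 CPM (interval 42.2 to 54.1), 51.3 (43.7 to 59.7) and 43.4 (35.2 to 52.9) in signature-positive cells and 10.9, 3.60 and 8.10 in the reference cells, with no overlap of intervals. Itga4 was at 78.1, 142.3 and 111.8 CPM against 67.8, 97.2 and 136.6, and the intervals of the reference cells (43.9 to 100.1, 64.0 to 141.4 and 113.0 to 163.5) overlapped those of the signature-positive cells in each library. The signature-positive cells include the Trdc part, which was high in Itga4 at D5 and D19. In the CD8 part alone the D19 level given above lay below the reference interval. These are RNA levels, and neither CD44 nor CD49d was among the 11 tags. Of the 13 listed memory and quiescence genes 4, 3 and 3 were higher by 2-fold at D0, D5 and D19 and 1, 1 and 0 lower. The interleukin-18 receptor subunit Il18rap was among the higher genes in each library. Of the 8 listed naive genes none was higher and 3, 2 and 0 were lower. The naive-cell transcript Lef1 remained present, at 230.5, 272.9 and 217.3 CPM against 477.6, 421.1 and 372.6.

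These averages covered a range of levels. Among CD8 T cells, Ccl5 was at 1224, 348.2 and 1756 CPM with 3 or 4 signature genes and at 4839, 2738 and 3780 CPM with 5 to 8. S100a6 was at 66.0, 46.9 and 150.7 CPM with 3 or 4 genes and 370.9, 309.9 and 459.9 CPM with 5 to 8, and Ctla2b, Itgb1 and Ahnak were likewise higher by 2-fold or more in each library. Dapl1, a gene of naive and early memory T cells, was at 631.5, 625.5 and 496.9 CPM with 3 or 4 genes and at 208.3, 167.7 and 197.5 CPM with 5 to 8. Igfbp4 was at 150.9, 177.2 and 126.2 CPM with 3 or 4 genes and at 23.7, 20.6 and 34.5 CPM with 5 to 8, and Ccr9 and Ramp1 were lower by 2-fold or more in each library. Cd44 stood at 18.3, 29.2 and 19.3 CPM with 3 or 4 genes and at 54.8, 47.8 and 63.6 CPM with 5 to 8, with overlapping intervals at D5. Itga4 stood at 73.3, 132.4 and 95.5 CPM with 3 or 4 genes and 59.6, 94.4 and 63.6 CPM with 5 to 8, and its intervals overlapped in each library. Cells with 5 to 8 genes also held more UMIs per cell, with medians of 8257, 10064 and 6301 against 6995, 7954.5 and 5152.

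**Figure D4:**
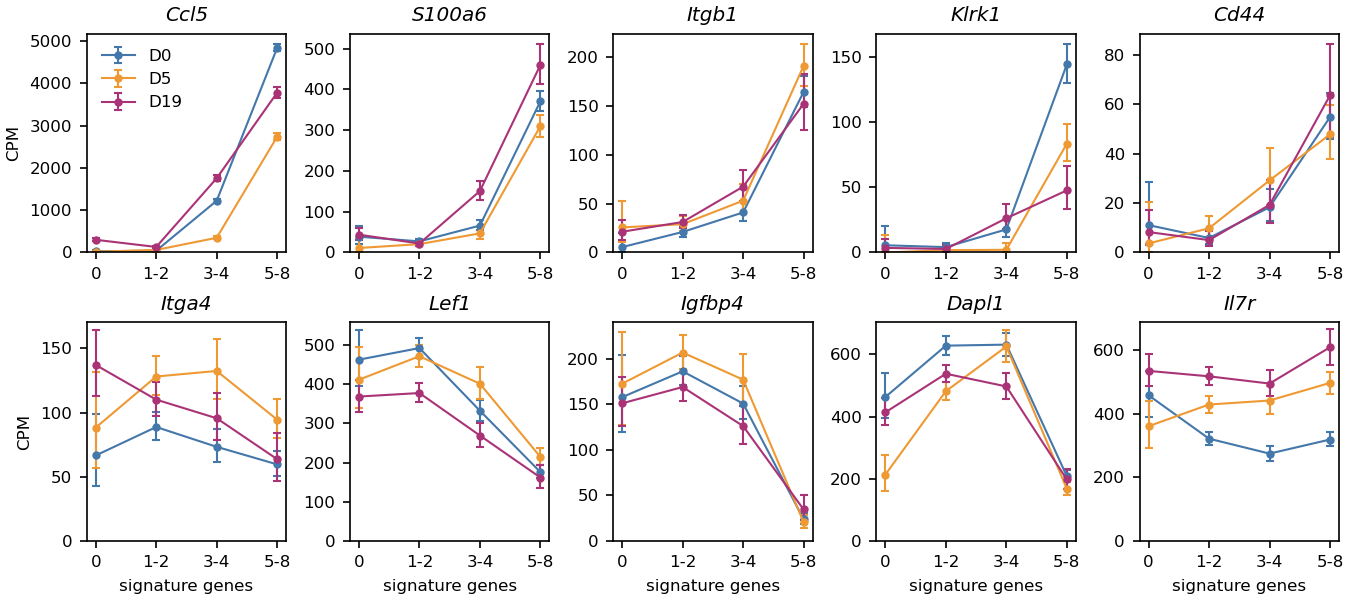
Level (CPM, y axis from 0) of 10 genes in CD8 T cells grouped by the number of signature genes detected (x axis: 0, 1-2, 3-4 and 5-8), 1 line per library, bars as exact 95% Poisson intervals. Ccl5, S100a6, Itgb1, Klrk1 and Cd44 are highest in the 5-8 group in all 3 libraries, Lef1 and Igfbp4 are lowest there, Dapl1 is lowest there at D0 and D19 and overlaps the group with 0 genes at D5, and Itga4 is not higher there.

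Gzma, Gzmb and Prf1 were below their levels in NK cells in each library. Gzma, a granzyme, was at 87.8, 5.59 and 43.4 CPM in signature-positive cells and at 3860, 3824 and 806.7 CPM in NK cells. Single cells gave much of it: at D0 1 cell gave 227 of 471 Gzma UMIs, and at D19 1 cell gave 84 of 97. Gzmb was at 25.2, 9.01 and 3.58 CPM against 454.5, 440.8 and 104.4, and perforin (Prf1) at 63.9, 44.8 and 23.2 CPM against 492.3, 366.4 and 89.2. Gzmk went the other way, at 21.99, 10.3 and 15.6 CPM in signature-positive cells against 1.69, 3.54 and 0 CPM in NK cells, and was detected in 6.96%, 4.75% and 4.56% of the signature-positive cells. Ctsw and Cst7, both granule genes, were nearer to NK cells than Gzma, Gzmb and Prf1 were, with Ctsw at 291.8, 310.5 and 275.8 CPM against 615.8, 531.1 and 480.6 and Cst7, which was the higher in signature-positive cells at D19, at 109.0, 95.4 and 50.5 CPM against 154.5, 134.5 and 37.0.

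Marker lists of other cells were summed. The 8 NK cell markers summed to 147.4, 112.2 and 86.7 CPM in signature-positive cells against 7680, 6792 and 4832 CPM in NK cells, and 8, 8 and 7 of the 8 had a UMI. The innate-like list (8 genes, of which Klrb1c and Fcer1g are also NK markers) summed to 134.4, 130.5 and 71.5 CPM. The 7 B cell markers summed to 800.0, 768.0 and 243.6 CPM against 38866, 24996 and 33020 in B cells, and the 9 dendritic and myeloid markers to 291.1, 291.8 and 94.3 CPM. The T17 list summed to 13.2, 25.8 and 4.92 CPM against 6.01, 3.83 and 10.1 CPM in other T cells. The 5 regulatory T cell markers summed to 159.1, 179.0 and 121.2 CPM against 99.3, 116.4 and 122.9 CPM in other T cells. At D19 the B cell and myeloid sums were lowest, as were the class II genes H2-Ab1 and Cd74, and their part in any change was not tested.

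Changes over the diet were read from the summed counts of signature-positive cells. From D0 to D5, 41 genes were higher by 2-fold or more (0.522% of 7857 tested) and 24 lower (0.305%). From D0 to D19, 48 were higher (0.646% of 7433) and 106 lower (1.43%), and from D5 to D19, 17 higher (0.256% of 6640) and 71 lower (1.07%). Without the cell that held the most UMIs of each gene in each library, the 41 became 13 and the 71 became 46. On a scale centred on the median gene, 63 were higher and 82 lower at D19 against D0, and 31 and 52 at D19 against D5. The counts also moved by over 1.5 times with the constant added before the log. The median of all genes was shifted by 0.02, -0.11 and -0.15 on the log2 scale in these 3 comparisons. Of the 4 listed chemokines 3 were lower at D5 and 3 at D19 against D0, next to 5 and 6 of 9 dissociation genes, 2 and 3 of 10 cytotoxic effectors, 1 and 2 of 17 NK receptors, and none of 13 memory or of 8 naive genes. None of these lists had a gene higher by 2-fold.

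Ifng, the type 1 cytokine, had a D0 level of 110.1 CPM (interval 101.4 to 119.4), a D5 level of 46.3 (39.2 to 54.4) and a D19 level of 12.5 (8.32 to 18.1). The log2 difference on the offset scale was -1.09 at D5 and -2.42 at D19 against D0. In NK cells it was -1.02 and -0.82, with 319.2 CPM at D0, 152.2 at D5 and 176.1 at D19. The level was thus lower in both at D5 than at D0, and at D19 it was lower again in the signature-positive cells but not in NK cells. In the CD8 part alone Ifng was at 88.3, 24.9 and 7.91 CPM and in cells with neither coreceptor transcript at 350.4, 139.5 and 61.5 CPM, the same order in both. The difference between the kinds of cells was not tested.

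Xcl1, the chemokine that attracts XCR1+ dendritic cells, whose promoter window was printed with the signature genes, was at 408.7, 162.5 and 118.0 CPM, and Ccl4 (MIP-1β) at 185.2, 29.5 and 54.5 CPM. Ccl4 was lower by 2-fold or more at D5 and D19 in other T cells and in NK cells as well, and Xcl1 in NK cells, with log2 differences of -1.39 in both comparisons. Ccl5 changed less, with 3514, 2036 and 2769 CPM, or -0.78 and -0.34 on the log2 scale against D0. Ccl3 was at 21.4, 3.42 and 4.47 CPM. At D0 1 cell gave 333 of 994 Ccl4 UMIs, and without the highest cell of each library its D5 difference was -1.87 in place of -2.30. In CPM each of these 4 chemokines was highest at D0. With each cell thinned to 1000 UMIs this held for Xcl1, detected in 15.5%, 12.3% and 4.56% of the cells, with overlapping intervals at D0 and D5. Ccl4 was then detected in 5.72%, 3.07% and 4.56%, with intervals that all overlapped, and Ccl5 in 48.4%, 43.0% and 49.3%, so D0 was not the highest for Ccl5.

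Cxcr6, the receptor for CXCL16 on T cells that enter the liver, had levels of 105.5 CPM (interval 97.0 to 114.5), 101.6 CPM (90.9 to 113.3) and 21.0 CPM (15.4 to 27.9). The log2 difference of D19 against D0 was -1.90 in signature-positive cells, -0.50 in other T cells and -0.09 in NK cells. It was detected in 36.2%, 41.3% and 11.0% of the cells, and in the CD8 part its level was 82.8, 68.5 and 18.5 CPM. Klrk1 was at 111.6, 76.5 and 42.9 CPM, with a log2 difference of D19 against D0 of -1.20 against -0.09 in NK cells. Gzmb was at 25.2, 9.01 and 3.58 CPM and Prf1 at 63.9, 44.8 and 23.2 CPM, with log2 differences of -1.37 and -1.15 at D19 against -2.02 and -2.34 in NK cells. The lower Cxcr6 and Klrk1 had no counterpart of 2-fold in NK cells, whereas the lower Gzmb and Prf1 had one. Cells with 5 or more signature genes were 53.6% of signature-positive cells at D0 and 34.6% at D19. In CD8 T cells with that many, Klrk1 was at 144.4, 83.5 and 47.7 CPM. With 3 or 4 genes it was at 17.8, 2.085 and 26.3 CPM, highest at D19. In CD8 T cells with none, Cxcr6 was detected in 16%, 16.3% and 2.94%, and at 1000 UMIs per cell in 0%, 4.08% and 0.420%. What part this make-up and depth had in the contrast with NK cells was not tested.

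Neither Il7r nor Bcl2 differed by 2-fold between libraries in these cells. Il7r, the interleukin-7 receptor, had levels of 308.2 CPM (interval 293.5 to 323.4), 516.5 CPM (492.0 to 542.0) and 564.2 CPM (533.5 to 596.2). Bcl2, which protects from cell death, was at 247.1, 339.7 and 362.1 CPM. Other T cells differed the same way, by 0.72 for Il7r and 1.43 for Bcl2 on the log2 scale at D19. Cd44 stayed at 47.9, 51.3 and 43.4 CPM and Lef1 at 230.5, 272.9 and 217.3 CPM. Cd44 and Lef1 were thus closer between libraries than Ifng, Xcl1 and Ccl4 were.

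**Figure D5:**
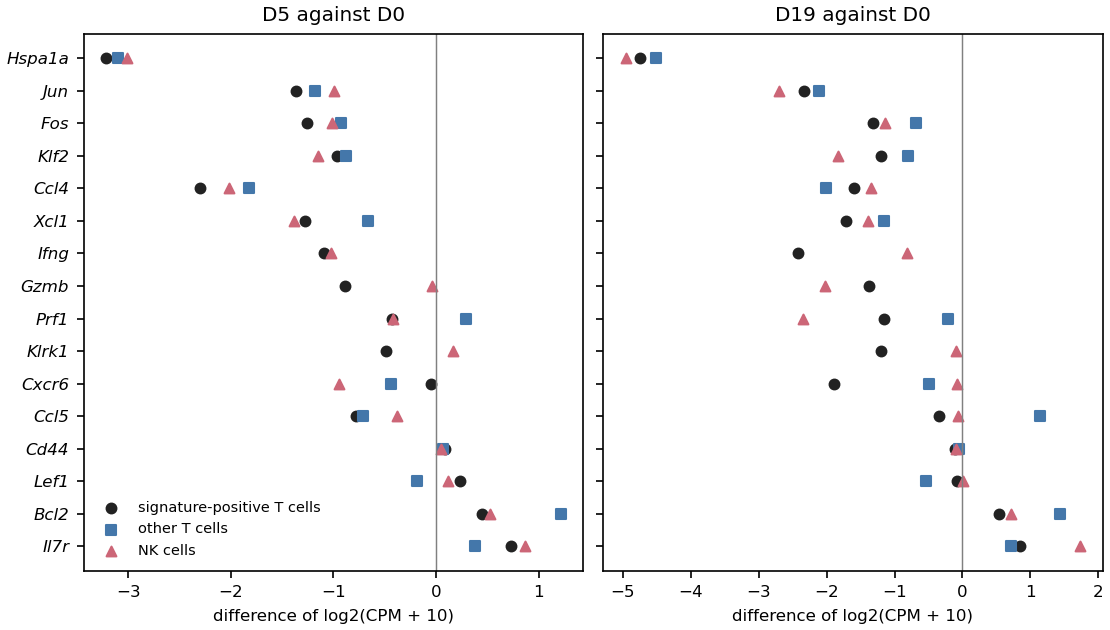
Difference of log2(CPM + 10) of 16 genes at D5 (left) and D19 (right) against D0, in signature-positive T cells (black circles), other T cells (blue squares) and NK cells (red triangles); a point is drawn where the 2 libraries held at least 50 UMIs. Hspa1a, Jun, Ccl4 and Xcl1 lie left of 0 in every kind of cell, and Ifng and Cxcr6 at D19 lie furthest left in the signature-positive cells.

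The largest negative differences from D0 were those of genes that cell handling is known to induce. Hspa1a, a heat shock chaperone, was at 258.3 CPM at D0, 18.96 at D5 and 0 at D19, where 0 UMIs allow a level of up to 1.34 CPM (3 counts). Hspa1b was at 235.9, 19.9 and 0.447 CPM, and the immediate early gene Jun at 547.5, 205.7 and 101.0 CPM. Other T cells gave log2 differences of -3.10 and -4.51 for Hspa1a against -3.21 and -4.75 in signature-positive cells. Klf2, which drives S1pr1 and node exit, was at 1535, 782.6 and 666.5 CPM, and differed by -0.96 and -1.19 against -0.88 and -0.81 in other T cells. Of the 10 largest such differences at D5 6, and of those at D19 9, were also of 2-fold or more in other T cells. These genes set D0 apart across T cells, and what part handling of the D0 library had in the lower Ifng, Xcl1 and Ccl4 was not tested.

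Among the 10 largest negative differences at D19, Ifng was the only one that was not also of 2-fold in other T cells, where it had 3 UMIs at D0 and 1 at D19. The others were Hspa1a, Hspa1b, Atf3, Hsph1, Dnajb1 and Jun, the class II genes H2-Ab1 (245.0 CPM at D0 and 32.2 at D19) and Cd74 (564.6 and 114.0), and Gm42418, a locus of ribosomal RNA reads (6543 and 1253). At D5 Gm42418 was at 29790 CPM, and AY036118, another such locus, was at 418.9, 984.9 and 92.1 CPM at D0, D5 and D19, so the D5 library stood apart in these reads. In other T cells and NK cells the log2 difference of Gm42418 at D19 against D5 was -4.57 and -4.48, beside -4.56 in signature-positive cells, and its part in other differences was not tested. H2-Ab1 and Cd74 belong to B and dendritic cells, and in free RNA H2-Ab1 was at 2331 CPM at D0 and 1175 at D19, and Cd74 at 8490 and 3332 CPM.

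Most of the largest positive differences sat in single cells or in genes abundant in free RNA. All 10 of D5 against D0 were red cell or pancreatic genes (Ctrb1, Hba-a1, Hba-a2, Cela2a, Hbb-bs, Try4, Prss2, Pnlip, Try5 and 2210010C04Rik), for each of which 1 cell gave 95.9% to 100% of the D5 UMIs. Without the highest cell none of the 10 was 2-fold higher. At D19 the globin genes led, with Hba-a1 at 1445 CPM against 10.3 at D0 and 1 cell giving 49.0% of the D19 UMIs. Dcn, Apoe, Ctrb1 and Mt1 followed, of which Ctrb1 was at 11360 CPM in the free RNA of D19, and 9 of the 10 stayed at 2-fold or more without the highest cell. Klhdc1 was at 24.6 CPM at D0 and 107.7 at D19 and Snhg9 at 14.5 and 77.3 CPM, a difference of 1.77 and 1.83 on the log2 scale, beside 1.87 and 1.79 in other T cells. No gene among the 10 largest positive differences of either comparison was a T cell effector or memory gene.

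Transcripts of the cell cycle were counted with all UMIs, so that the shares depend on depth and on the rule, and no share of dividing cells is read from them. At least 2 of 5 cycle genes (Mki67, Top2a, Birc5, Cdk1 and Ube2c) had a UMI in 22 of 647 signature-positive cells at D0 (3.40%, interval 2.14 to 5.10), 10 of 358 at D5 (2.79%, 1.35 to 5.08) and 8 of 373 at D19 (2.14%, 0.930 to 4.18). In other T cells it was 4 of 910, 0 of 510 (interval up to 0.721) and 0 of 1101 (up to 0.334). The intervals of the 3 time points overlapped. Singly, Stmn1, a cycle gene outside these 5, had a UMI in 14.7%, 11.2% and 7.51% of signature-positive cells and Top2a in 6.34%, 7.26% and 4.02%, and at 1000 UMIs per cell Stmn1 in 3.40%, 3.91% and 2.95% and Top2a in 1.24%, 2.23% and 0.536%. Scrublet, a doublet score, placed 11, 5 and 8 signature-positive cells among the highest-scoring barcodes, or 1.70%, 1.40% and 2.15%, and they were kept. The shares were 0.600%, 0.602% and 0.985% in all T cells that were not signature-positive and 5.23%, 4.99% and 5.41% in all cells.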

How the data were processed

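UMI counts per gene and antibody tag were deposited by the authors as unfiltered matrices, made with Cell Ranger 4 on mm10 (per the submitters' processing notes) and not normalized. The 3 LN CITE-seq libraries were used, 1 each for D0, D5 and D19, with 2 sorted γδ T cell pools of LN as a reference. The signature-positive cells and all gene lists were chosen with earlier results of these data known. Counts were read with Python 3.11.15, NumPy 2.4.6, SciPy 1.17.1 and pandas 2.3.3. Scrublet (Scanpy 1.11.5) scored doublets at a rate of 0.8% per 1000 cells, and the high-scoring cells were kept in the main values. UMIs were summed per library and kind of cell and given as CPM with exact 95% intervals, which cover counting error only. Differences are of log2(CPM + 10) over genes with at least 50 UMIs in the 2 groups, and a gene counted as higher or lower at 2-fold. With 1 library per time point no p-value was computed. Free RNA was read from barcodes with 10 to 100 UMIs. The genes named were all those of the lists plus the 10 largest differences in each direction, leaving out mitochondrial, ribosomal protein, immunoglobulin and signature genes. The comparison code was tested on simulated data. Alternatives were another number of signature genes, depth, doublets, mitochondrial share, added constant, scaling and tag threshold.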

Additional observations from a re-analysis of the deposited data

How the results depend on the processing

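No paired analysis was possible because each time point is 1 library without replicates, and for the same reason no replicate could be left out. Thinning to 3000 UMIs, 3 or more Trdc UMIs, NK cell tag thresholds, 5 or more signature genes and leaving out the highest member were added after seeing the data. The share of T cells at D0, D5 and D19 was 39.8%, 42.6% and 29.2% with 2 or more signature genes, 19.9%, 18.97% and 9.47% with 4 or more, 8.82%, 5.41% and 3.13% at 1000 UMIs, and 21.6% and 17.6% at D0 and D5 at 3000 UMIs. With 2 or more genes D5 minus D0 was 2.74 points and D19 minus D5 -13.4 points. At 1000 UMIs D19 minus D0 was -5.69 and D19 minus D5 -2.28 points, and at 3000 UMIs -5.60 and -1.63 points. The CD8 part was 58.2%, 47.1% and 48.8% at 1000 UMIs, and at D0 73.6% at 3000 UMIs and 73.7% by protein. The Trdc part was 1.96% at D5 at 1000 UMIs and 5.10% at D0 with 3 or more Trdc UMIs. CD3-positive cells were 96.1%, 97.8% and 96.5% at the 95th percentile of B cells and 90.7%, 93.6% and 81.5% at the 99th of NK cells. CD8a was positive on 84.1% at D0 and 90.6% at D19 at the 95th percentile and on 83.9% at D0 by NK cells, and CD4 on 12.4% at D0 at the 95th percentile and 7.73% and 3.07% at D0 and D5 by NK cells. With 1 CPM added, 111 genes were higher and 71 lower at D5 against D0, 142 and 415 at D19 against D0, and 45 and 247 at D19 against D5. With 50 CPM these were 27 and 9, 16 and 37, and 5 and 26. Without the highest member 13 genes were higher at D5 against D0 and 46 lower at D19 against D5, and on the median-centred scale 31 were higher at D19 against D5. Without the highest member, Prss2, Pnlip and Try5 turned to -0.31, -0.079 and -0.027 at D5 against D0, and at D19 against D5 Cela2a turned to 0.62, Ctrb1 to 1.81, Clps to 0.32, Cela3b to 0.53, Pnlip to 0.99, Try5 to 0.85, Cpa1 to 0.35 and 2210010C04Rik to 0.88, since 1 D5 cell held nearly all their UMIs. With 4 or more signature genes Hbb-bt and Hbb-bs turned to -3.72 and -4.48 at D19 against D5, and with 5 or more to -3.93 and -4.95, with Dcn at -0.33. Without the highest Scrublet scores Dcn was at -0.14. The cause of the other changes was not tested. Each single-gene time value was labelled once under each alternative. Of these labels 769 were within the counting interval of the main value, 281 moved and 17 reversed. The alternative of at least 20 UMIs left the values themselves unchanged, so its 97 labels of no change were fixed in advance. The D19 library was the shallowest. The intervals cover counting error only, and not the spread between single cells of a library. The spread between libraries of the same time point cannot be seen here.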
